A study of Mus musculus with 2 samples.

Results

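The genes described here are 10 regulators of DNA methylation and Polycomb repression: the DNA methyltransferases Dnmt1, Dnmt3a and Dnmt3b, the methylcytosine dioxygenases Tet1, Tet2 and Tet3, the histone methyltransferases Ezh1 and Ezh2, the Polycomb ring finger gene Bmi1 and the deubiquitinase partner Asxl1. They were chosen as genes of known function and found by symbol in the platform annotation, by a rule that uses no measured value, although earlier results of these data were known when they were chosen. They are 10 of 19938 genes that the array named by 1 symbol, covered by 13 of 21789 such probe sets. A probe set is a group of short array probes that together measure 1 transcript. The study asked what the transcription factor NRF2, encoded by Nfe2l2 and known for driving antioxidant genes, does for the survival of mouse haematopoietic stem cells. It compared 1 RNA pool from Nrf2 knockout (Nrf2-/-) mice with 1 RNA pool from wild-type (Nrf2+/+) mice, all C57BL/6J, young and healthy, aged 8 to 10 weeks and without treatment. Each pool held the sorted KSL cells of 5 mice, so the 2 arrays stood for 10 mice. KSL stands for c-Kit, Sca-1 and lineage: the sort keeps marrow cells positive for the former pair and negative for mature lineage markers, which include stem cells and early progenitors. Neither the deleted part of Nfe2l2 nor the sex of the mice is given in the labels.

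DNMT1 copies methylation onto the new DNA strand after replication, whereas DNMT3A and DNMT3B set methylation at new sites. The TET enzymes oxidise methylcytosine, the first step of its removal. EZH1 and EZH2 are alternative catalytic subunits of Polycomb repressive complex PRC2, which methylates histone H3 on the lysine known as K27, and BMI1 is a subunit of the second complex, PRC1, which ubiquitinates histone H2A. ASXL1 partners BAP1 in the PR-DUB complex, which removes that ubiquitin. In blood stem cells, BMI1 is known to be needed for self-renewal, and DNMT3A, TET2, ASXL1 and EZH2 are recurrent targets of mutation in human myeloid disease.

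The promoter sequences below are shown because they separate the 10 genes by short motifs that the choice of genes did not use. All 10 matched a RefSeq promoter window (GRCm38.p6) of 300 bases, from 250 before to 50 after an annotated start, with 14 windows in all since Dnmt1 and Dnmt3a have several starts. The windows were searched on both strands for the E2F-type octamers TTTGGCGC and TTTCGCGC and for the core of the antioxidant response element, TGACNNNGC, the motif that NRF2 and small MAF proteins are known to bind. Position 1 is the first base of the transcript, and each stretch is written in the direction of its gene with the match in capitals.

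The octamer TTTGGCGC was found for Ezh2, at positions 4 to 11, and for 1 of the 3 Dnmt1 starts, at positions 34 to 41. It occurs in 0.514% of all 32851 promoter windows and in 0.585% of genes. The same Dnmt1 window also held TTTCGCGC, on the opposite strand at positions -219 to -212; that octamer occurs in 0.323% of windows. The 3 stretches lie at chr6:47595011-47595053, chr9:20952574-20952603 and chr9:20952809-20952868, all on the minus strand.
Ezh2, TTTGGCGC: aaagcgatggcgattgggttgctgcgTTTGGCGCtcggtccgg
Dnmt1, TTTGGCGC: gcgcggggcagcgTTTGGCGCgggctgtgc
Dnmt1, TTTCGCGC on the other strand: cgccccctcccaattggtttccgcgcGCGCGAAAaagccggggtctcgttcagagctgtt

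The antioxidant core TGACNNNGC, which occurs in 12.4% of windows and for 14% of genes, was found for 4 of the 10 genes: Ezh1, Bmi1, Tet1 and Ezh2. A match describes the letters only, and no binding of NRF2 was measured in this study. The stretches lie at chr11:101226564-101226624 (Ezh1, minus strand), chr2:18676781-18676841 (Bmi1, plus strand), chr10:62887334-62887394 (Tet1, minus strand) and chr6:47595173-47595233 (Ezh2, minus strand, with the core on the opposite strand).
Ezh1: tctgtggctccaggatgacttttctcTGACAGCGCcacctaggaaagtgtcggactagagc
Bmi1: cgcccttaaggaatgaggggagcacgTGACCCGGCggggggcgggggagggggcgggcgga
Tet1: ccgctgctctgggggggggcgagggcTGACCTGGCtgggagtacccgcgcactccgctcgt
Ezh2: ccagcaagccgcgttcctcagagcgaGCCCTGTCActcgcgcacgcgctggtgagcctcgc

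The promoters also differed in CpG dinucleotides, the substrate of the DNA methyltransferases. The Tet2 window was the richest, with 57 CpG, and the 3 Dnmt3a windows held 18, 46 and 47, against a median of 7 over all windows. Asxl1 had 13, Tet1 17, Tet3 22, Ezh1 and Bmi1 23 each, Dnmt3b 30 and Ezh2 31. The 3 Dnmt1 windows held 2, 12 and 33, and the highest of these is the window with both octamers.

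Levels are log2 intensities as deposited. A difference is the knockout level less the wild-type level, on the log2 scale, and a pair of levels joined by "against" gives the knockout first. With 1 array per genotype there is no replicate check, no test was run and no p-value is given; the number of arrays limits the precision. Of the 19938 genes, 9970 passed a filter at the median level of 6.57, and the middle 95% of these differed by between -0.73 and 0.57. The disagreement between the probe sets of 515 genes that have 2 of them gave each difference a probe-set error of 0.32 (SD), or 0.17 by the median absolute deviation, which leaves out the spread between mice, sorts and amplifications. Where a gene is the mean of several probe sets, these errors were divided by the square root of their number. Nfe2l2 itself measured 9.07 in knockout and 9.16 in wild-type cells, 94.0% of the wild-type level, so its probe set gave no check of the genotype labels. Kit, which encodes the c-Kit of the gate, was bright on both arrays, at 11.21 against 10.93, and Sca-1 was not analysed here. The neutrophil list used here is not limited to genes of mature neutrophils, cells that the gate should remove. Its genes were lower in the knockout array: 17 of 18 past the filter, by a median of -1.40. Of these, 4 (Retnlg, Mmp8, Cxcr2 and Il1r2) passed through their wild-type level alone, and without them 13 of 14 were lower, by a median of -1.16. The list had a mean level over all 20 measured genes of 7.87 against 9.06; none was at 0 on either array, where the lowest value of any probe set was 2.40. Of the monocyte and macrophage genes, 9 of 10 past the filter were lower, by a median of -0.80, and 7 of the 8 that reached the filter level on both arrays were lower, by a median of -0.74. Genes of dividing cells were mostly higher, 14 of 21, by a median of 0.18. In bulk RNA, fewer cells of a type and less RNA per cell cannot be told apart.

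None of the 10 regulators differed by 2-fold, and none by 1.5-fold. Over all genes past the filter, 1.17% differed by at least 2-fold and 6.64% by at least 1.5-fold. All 10 passed the level filter, and all 10 differences lay inside the middle 95% of genes. In the knockout array 5 were higher and 5 lower, the latter counting Tet3 at -0.004, for which no direction can be given. Over all genes past the filter, 46.5% were higher. The 10 differences ran from -0.53 for Ezh1 to 0.37 for Dnmt3b. Their median was 0.08, beside a median of -0.02 over all genes past the filter. At a smaller size of 1.2-fold, added after the values were seen, 6 of the 10 were counted, 3 higher and 3 lower, against 32.1% of all genes. The median size of a difference, ignoring its sign, was 0.27 for the 10 genes and 0.17 for all genes past the filter. The excess is a description of 10 genes on 2 arrays, and how many exceed the probe-set error depends on its estimate. With the SD they were 2, Ezh1 and Dnmt3b, and with the robust estimate 9, all but Tet3. Many other genes differed as much. Over all genes past the filter, 18.4% differed by at least the 0.37 of Dnmt3b. The 0.17 of Dnmt1, just past the robust estimate, was reached by 49.1%.

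**Figure D1:**
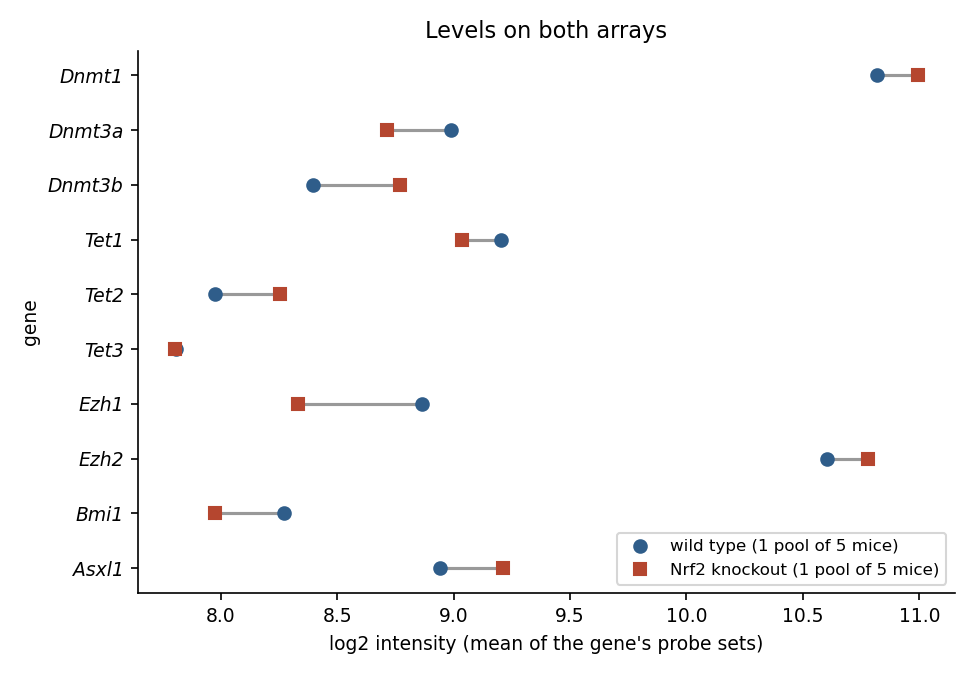
Log2 intensity of each of the 10 genes (x axis, mean of the gene's probe sets) on the wild-type array (blue circles) and the Nrf2 knockout array (red squares), 1 pool of 5 mice each. The longest line is that of Ezh1, at 8.86 in the wild-type and 8.33 in the knockout array; the Tet3 symbols coincide near 7.81. Brightness depends on the probes, so levels are not comparable between genes.

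Among the DNA methyltransferases, the de novo pair diverged and the maintenance enzyme was slightly higher in the knockout array. Dnmt3b measured 8.77 in knockout and 8.40 in wild-type cells, a gap of 0.37, or 129.6% of wild type. Dnmt3a stood at 8.72 against 8.99, a gap of -0.27, or 82.8% of wild type. Both exceeded the robust probe-set error of 0.17, and of the 2 only Dnmt3b exceeded the SD of 0.32. Dnmt1, on the array's bright side with 98.3% of genes below it, stood at 10.99 against 10.82, a difference of 0.17. Bright genes scattered less: the 500 genes nearest in level to Dnmt1 had an SD of 0.21 and those nearest to Dnmt3b one of 0.36, so the smaller Dnmt1 difference lay at percentile 88.0 of its neighbours and the Dnmt3b difference at percentile 89.8. Dnmt1 is known to be transcribed most in dividing cells. Of 21 genes of such cells, 14 were higher in the same array (Nusap1 by 0.82, Mki67 by 0.43) and 7 lower (Tyms by -0.58, Pcna by -0.08). Past 1.5-fold, 4 of the 21 were higher and 0 lower, beside 6.64% of all genes past the filter in either direction. The part of dividing cells in the Dnmt1 difference was not tested.

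The TET genes showed no common direction. Tet2 was higher in the knockout array, at 8.25 against 7.97, a difference of 0.28 from 1 probe set. Tet1 stood at 9.04 against 9.20, a difference of -0.16, as the mean of 3 probe sets. These did not point one way: the first measured 8.44 in knockout and 8.84 in wild-type cells, the next 9.04 against 9.01 and the last 9.63 against 9.76, so that the differences were -0.41, 0.04 and -0.12, with an SD of 0.23. The standard error of the Tet1 mean from its own probe sets was 0.13 (n = 3).

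Tet3 was level by its mean, at 7.81 on both arrays, but its pair of probe sets moved in opposite directions. One measured 7.60 in knockout and 7.91 in wild-type cells, a gap of -0.30, and the other 8.01 against 7.71, a difference of 0.30. The SD between them was 0.42, which for 2 probe sets only restates how far apart they were. No direction can be given for Tet3, since its mean also changed sign under each of the 3 scaling alternatives. The other 8 regulators had 1 probe set each, so disagreement of this kind could not be seen for them.

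The PRC2 catalytic subunits also diverged. Ezh1, whose product is the less active enzyme and is known to predominate in cells that do not divide, had the largest difference of the 10 genes. It measured 8.33 in knockout and 8.86 in wild-type cells, a gap of -0.53, or 69.2% of wild type. Of the 9970 genes past the filter, 8.51% differed by at least this much in either direction, and among the 500 genes nearest in level the value lay at percentile 5.6, where the SD was 0.35. Ezh2, the enzyme known to predominate in dividing cells, stood at 10.78 against 10.60, a difference of 0.18, at percentile 89.4 of its neighbours in level. In the same array 14 of 21 genes of dividing cells were higher and 7 lower, with a median of 0.18, and neutrophil genes had a median of -1.40; their part in either difference was not tested.

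The PRC1 gene Bmi1 and the PR-DUB gene Asxl1 differed little, in opposite directions. Bmi1 measured 7.98 in knockout and 8.27 in wild-type cells, a gap of -0.29, or 81.6% of wild type. Asxl1 stood at 9.21 against 8.94, a gap of 0.27, or 120.6% of wild type. Both differences were within the SD of the probe-set error, 0.32, and beyond its robust estimate, 0.17.

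**Figure D2:**
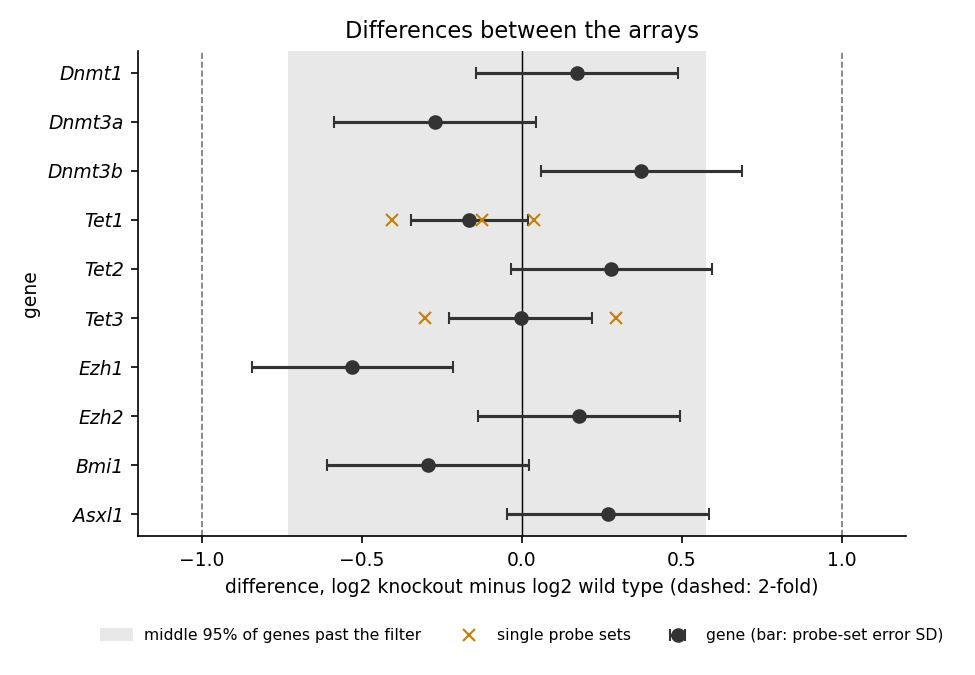
Difference of each gene on the log2 scale (x axis, knockout minus wild type). Circles are genes and bars the probe-set error (SD), 0.32 for a single probe set and divided by the square root of the number of probe sets for Tet1 and Tet3. Crosses are the single probe sets of Tet1 and Tet3, the grey band is the middle 95% of genes past the filter (-0.73 to 0.57) and dashed lines mark 2-fold. All circles lie inside the band, and the bars of Ezh1 and Dnmt3b alone do not reach 0.

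Comparing paralogs of one family with each other removes any shift that both share within an array. These pairs were formed after the values were seen. Dnmt3b differed from Dnmt3a by 0.65 in their change between the arrays, and Ezh2 from Ezh1 by 0.71. The probe-set error of these gaps is 0.45 (SD), or 0.24 by the robust estimate, and both gaps exceeded either. Because the pairs were picked with their directions known, exceeding the error only describes them and is no check of a divergence. The gap of Tet2 over Tet1 was 0.44, with an error of 0.36 (SD), or 0.20 by the robust estimate, given the 3 probe sets of Tet1. Setting motifs beside the values, both genes with an E2F-type octamer, Dnmt1 and Ezh2, were higher by 0.17 and 0.18. Of the 4 genes with an antioxidant core, Ezh1, Bmi1 and Tet1 were lower, by -0.53, -0.29 and -0.16, and Ezh2 was higher. The Tet1 value is a mean of probe sets that did not point one way. Over all genes past the filter with a promoter window, 51.2% of those with either octamer were higher, beside 46.0% without. For the antioxidant core the shares were 45.8% and 46.1%. The part of either motif in these differences was not tested.

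**Figure D3:**
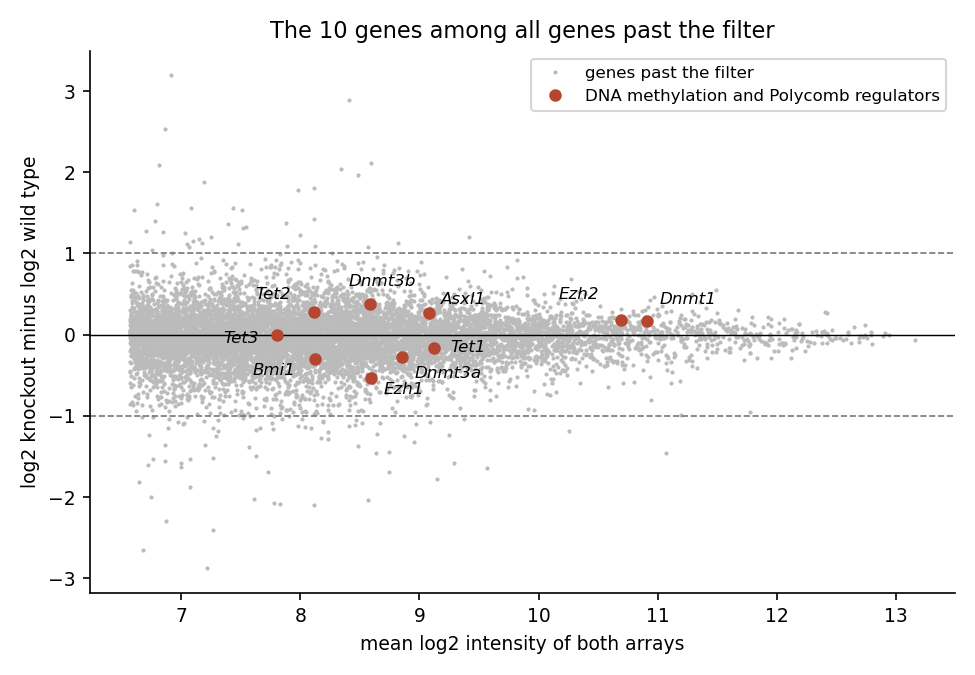
Difference of each gene (y axis, log2 knockout minus log2 wild type) against its mean log2 intensity (x axis). Grey points are the 9970 genes past the filter, red points the 10 regulators, and dashed lines mark 2-fold. The scatter narrows towards bright genes, where Dnmt1 and Ezh2 lie, and every red point lies between the dashed lines.

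The other genes of DNA methylation were near level. The partners that write, guide or read methylation had 13 of 15 listed genes past the filter, with 8 higher, 4 lower, 1 equal and 0 past 1.5-fold, and a median of 0.06. Uhrf1, which brings DNMT1 to newly copied DNA, measured 10.40 in knockout and 9.96 in wild-type cells, a gap of 0.44. The methyl-CpG reader Mbd1 differed by 0.31 and the zinc finger reader Zbtb38 by 0.29, while the reader Zbtb33, also called Kaiso, differed by -0.28. Of the demethylation partners, 9 of 14 passed the filter, with 6 higher and 3 lower and a median of 0.03. The DNA ligase Lig3 differed most, at 8.53 against 7.96, or 0.58. Ogt, the sugar transferase that binds TET proteins, differed by 0.21, Idh1, which makes the TET cosubstrate oxoglutarate, by 0.19, and Cxxc5 by -0.16.

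The other PRC2 subunits were near level by their median of 0.04, with 7 of 9 above 0, beside 46.5% of all genes past the filter. Of these 7, Rbbp7, Jarid2 and Aebp2 differed by only 0.01, 0.03 and 0.04. Eed and Suz12, which form the core with EZH1 or EZH2, were higher by 0.24 and 0.21, at 7.83 against 7.59 and 10.21 against 10.00. The accessory subunits Phf19 and Phf1, which guide the complex to chromatin, were higher by 0.49 and 0.28. Ezh1 was thus the PRC2 gene with the lowest value: the lowest of the 9 others was the histone-binding Rbbp4 at -0.16.

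The PRC1 subunits went both ways, and 2 of 20, Yaf2 and Cbx7, were past 1.5-fold, beside 6.64% of all genes past the filter. Of 20 subunits past the filter, 11 were higher, 8 lower and 1 equal, with a median of 0.10 and a mean near 0, at -0.0003. Yaf2 was at 7.03 in wild-type cells and at 6.16, under the filter, in knockout cells, a gap of -0.87. It passed the filter through its wild-type level alone. Without Yaf2, 11 of 19 were higher, with a median of 0.13, and 1 was past 1.5-fold. Its paralog Rybp, with which it alternates in variant PRC1, went the other way, at 8.35 against 7.78, or 0.57. The chromodomain subunits Cbx7 and Cbx8, which read K27 methylation, differed by -0.65 and -0.51.

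At the median level filter, the PR-DUB partners and K27 demethylases were the related group with the highest median, 0.25. Of 9 genes, 8 were higher, beside 46.5% of all genes past the filter, and 0 were past 1.5-fold. The ranking depended on the filter: at the 75th percentile of level the median was 0.10, under the 0.18 of the PRC1 subunits. Foxk1 and Foxk2, forkhead factors that bind BAP1 complexes, differed by 0.42 and 0.34. The demethylase Kdm6a stood at 9.16 against 8.75, a difference of 0.41, and the histone demethylase Kdm1b differed by 0.28. Bap1 itself, named here as the enzyme that ASXL1 activates, stood at 9.44 against 9.40.

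The opposing trithorax and COMPASS genes, which methylate histone H3 on K4, had the narrowest range of the related groups, with differences between -0.20 and 0.18 over 13 genes and a median of 0.07. The scaffold Men1 differed by -0.20, Ash2l by 0.18, Setd1b by 0.16 and Kmt2b by 0.15. Of 9 genes widely described as Polycomb targets, 5 passed the filter, with 2 higher and 3 lower and a median of -0.09. Meis1 differed by 0.35, Hmga2 by -0.32, Hoxa9 by 0.16 and Cdkn1c by -0.12. Cdkn2a, the cell cycle inhibitor gene known to be repressed by BMI1, was named for that role; it lay below the filter, at 6.40 against 6.45. The B lineage factors Ebf1 and Pax5, also known as BMI1-repressed genes in stem cells, lay below it too, at 5.84 against 5.28 and 5.69 against 5.58.

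**Figure D4:**
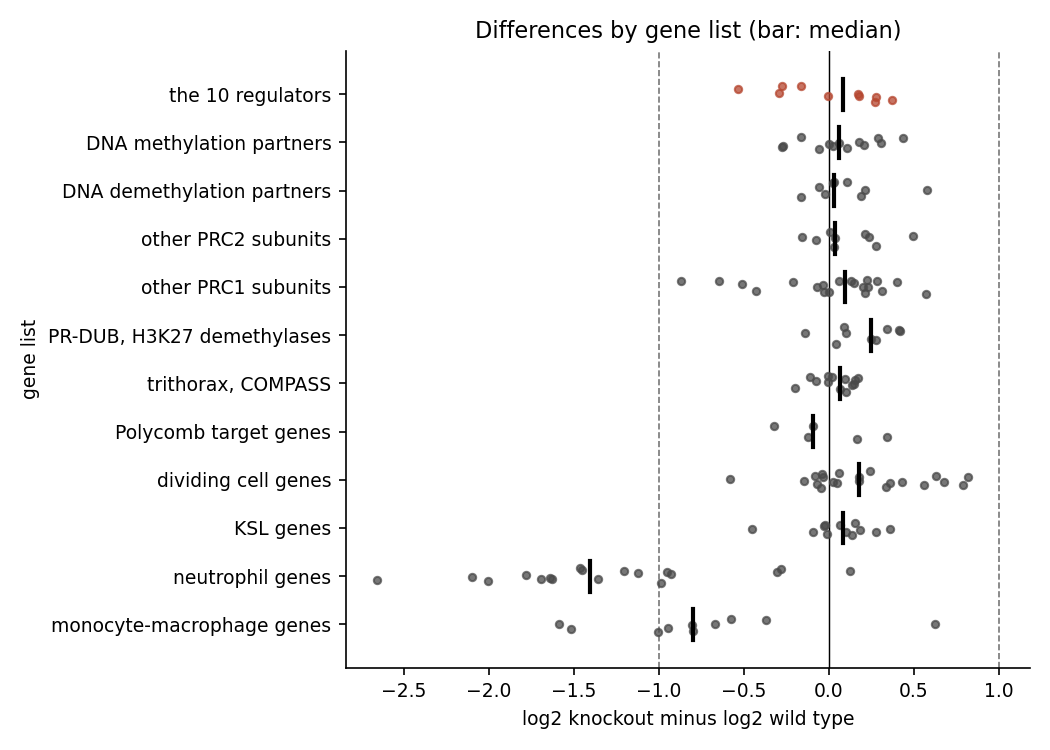
Differences of genes past the filter (x axis, log2 knockout minus log2 wild type) for the 10 regulators (red) and for related and marker gene lists (grey), with the median of each as a black bar and 2-fold as dashed lines. The regulator and chromatin lists centre between 0.03 and 0.25 and the Polycomb target genes on -0.09. The neutrophil and monocyte-macrophage lists centre on -1.40 and -0.80.

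The genes whose pair of levels was most like that of Ezh1, by Euclidean distance over the 2 arrays, were Pam16, Cep43 and Eid3, at distances of 0.01 to 0.03 and with differences of -0.52, -0.56 and -0.56. For Dnmt1 they were Snrpd1, Srsf6 and Skp1, at distances of 0.003 to 0.05 and with differences of 0.18, 0.22 and 0.11. With 2 arrays this likeness says no more than that a gene's pair of levels was nearly the same.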

How the data were processed

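Per the labels' protocols, RNA of the pooled KSL cells came from a Qiagen RNeasy column and was labelled after NuGEN Ovation amplification for Affymetrix Mouse Gene ST 1.0 arrays. Each deposited value is the log2 intensity of a probe set; the log base was taken from the values, which reach 13.8. The submitters' processing notes name Partek; how background, normalization and probe summary were handled is not stated there. The sorted values of both arrays differed by at most 0.0866, so a shift of all genes could not be seen. The deposited values were used with no further normalization, and fold changes were computed from the deposited log2 values. Of 28853 probe sets, the platform annotation gave 21789 exactly 1 symbol, 1621 several and 5443 none; those with 1 symbol were averaged per gene. Members, though found by symbol alone, and lists were chosen with earlier results of these data known. Named were all members, Nfe2l2, Kit, up to 4 genes per related list by size of difference, and the 3 nearest genes to 2 members. Every gene of a related list past 2-fold was to be named (there were 0). Genes of the marker lists, of cell types and dividing cells, were not all chosen by size, and those past 2-fold are not all named. Other names are said to be so or serve as background. Alternatives were median centring, quantile normalization, loess, the brightest probe set, other filters and other fold sizes. Python 3.11.15, numpy 2.4.6, pandas 2.3.3 and statsmodels 0.14.6 were used.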

Additional observations from a re-analysis of the deposited data

How the results depend on the processing

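No paired analysis was possible because each genotype had 1 array. For the same reason no replicate could be left out. Under median centring, quantile normalization, loess on mean level and the brightest probe set per gene, 9 of the 10 regulators kept their sign. For the 8 with 1 probe set, the brightest probe set is the same value, so that setting could not change them. The scalings moved the median over all genes past the filter only from -0.02 to at most 0.015. Larger differences could thus hardly change sign, and a kept sign says little about them. Tet3 ran from -0.004 to 0.30, the latter with its brighter probe set alone. Ezh1 ran from -0.53 to -0.48 and Dnmt3b from 0.37 to 0.42. The count of regulators past the fold size was 0 in every setting run at 2-fold and at 1.5-fold, and 6 at 1.2-fold, a size added after the values were seen. The share of all genes moved with the size itself, from 1.17% at 2-fold to 6.64% at 1.5-fold and 32.1% at 1.2-fold. All 14 list medians kept their sign under the 3 scalings. Under every alternative run, 11 of 14 kept it; one of these alternatives, the filter level reached on both arrays, was added after the values were seen. The exceptions were PRC1, with a mean of -0.0003, the erythroid genes, with a mean of -0.12, and the Polycomb targets, which reached 0.16 under another level filter. Probe-set error and a lone array per genotype limit what differences of this size can show.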

Other observations

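Over all 8063 genes past the filter that matched a promoter window, of 9970 past the filter, genes with the octamer TTTGGCGC were about as often higher as lower in the knockout array. They numbered 103, with 53 higher and 48 lower and a median of 0.01, beside a median of -0.02 for the 7960 without it. Genes with the other octamer, TTTCGCGC, numbered 68, with 34 higher and 33 lower and a median of 0.005. Past 1.5-fold in either direction were 13.2% of these 68, beside 6.02% of the genes without TTTCGCGC. For TTTGGCGC the shares past 1.5-fold were 6.8% and 6.07%. Genes with the antioxidant core TGACNNNGC numbered 1355, with 45.8% higher and a median of -0.02, beside 46.1% higher and a median of -0.02 for the 6708 without it. Of the 4 regulators with this core, Ezh1, Bmi1 and Tet1 lay below the median of the genes that share it. Ezh2, at 0.18, lay above that median. No test was run on these classes.

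Markers of other cell types that could be present in the sort went both ways. The median was 0.05 for 6 erythroid genes past the filter, 0.18 for 5 B lineage genes and -0.04 for 6 T and NK genes. Single genes differed more, with Bpgm at -0.80 and Car1 at -0.75 among the erythroid genes. Cd79b was at -0.79 and Ly6d at 0.67 among the B lineage genes, and Ccl5 at -0.70 among the T and NK genes. Ly6d reached the filter level on the knockout array alone and Igll1 on the wild-type array alone. Only 3 B lineage genes reached it on both arrays, and their median was also 0.18. The KSL genes had a median of 0.09 over 12, with Mecom at -0.45, Runx1 at 0.36, Kit at 0.28 and Tal1 at 0.18.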
